A study of Drosophila melanogaster with 38 samples.

Results

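Narrow clustered autosomal O-GlcNAc peaks without OGA made up 593 of the 1883 O-GlcNAc peaks of fly larvae (31.5%), and 35.7% of the 1661 peaks on the autosomes outside the heterochromatin sequences. A peak belonged to this set when it was under 75 bp wide, lay more than 1000 bp from each interval bound by OGA, and had at least 1 other O-GlcNAc peak within 10000 bp, measured from edge to edge. No signal value chose the members, only positions and widths. These come from the peak list of the same O-GlcNAc-seq experiment, so they are not independent of the signal. The remaining autosomal peaks served for comparison: 314 narrow peaks far from OGA with no other peak within 10000 bp (narrow isolated peaks), 320 peaks of 75 bp or wider far from OGA (broad peaks), and 434 peaks within 1000 bp of an OGA interval (peaks near OGA).

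O-GlcNAc is a single sugar, N-acetylglucosamine, that the transferase OGT attaches to serine and threonine side chains inside the cell, on nuclear proteins among others. OGA (O-GlcNAcase) is the hydrolase that removes it. In Drosophila, OGT is the product of super sex combs, a Polycomb group gene, and the Polycomb group protein Polyhomeotic is among its known chromatin substrates.

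The study followed how fast the sugar was lost from chromatin. OGA-null larvae, in which the OGA gene is knocked out, and wild-type (WT) Oregon R larvae both hatched from eggs laid on food with the azide sugar Ac4GalNAz at 150 uM and fed on it for 36 h. They then moved to food with the DMSO solvent alone (the chase) and were collected at 8 times, in steps of 4 h up to 24 h of chase and last at 36 h. Azide-bearing chromatin of whole larvae was biotinylated by a click reaction, purified on streptavidin and sequenced, with 2 biological replicates per genotype and time, 32 libraries in all. Each of the 16 deposited columns combines both replicates of a genotype and time, so no spread between replicates can be given and the unit of every test is the column. The depth of single libraries is unknown from these values, and libraries from larvae not fed the sugar were not analysed here. All larvae of both genotypes carried the sugar feeding and the formaldehyde fixation, and larvae of later chase times were also older, so chase time and age cannot be told apart. In whole larvae, fewer labelled cells and less label per cell cannot be told apart either. The 3534 OGA intervals come from 1 list for the ChIP-seq libraries of both genotypes.

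The members were short intervals, and many had the smallest width in the list. Their median width was 22 bp (20 to 74 bp), and 286 of the 593 (48.2%) were 20 bp wide, close to the 49.0% of narrow isolated peaks with that width (154 of 314, median 21 bp). Broad peaks had a median of 115 bp and peaks near OGA of 35 bp. The member closest to an OGA interval lay 1003 bp away, the farthest 314823 bp, and the median gap was 5.80 kb, compared with 12.2 kb for narrow isolated and 10.7 kb for broad peaks. All 4 large autosomal arms of the dm3 build held them in similar shares: 124 of 373 peaks on 2L (33.2%), 153 of 397 on 2R (38.5%), 152 of 408 on 3L (37.3%) and 164 of 482 on 3R (34.0%), while the 1 peak of chromosome 4 was no member.

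On either side of the width limit, the ranges of signal overlapped at 0 h and at 12 h. At the limits of the gaps only single peaks could be compared. The 4 members of 74 bp, the widest, had 20.4 to 27.7 units of signal per base at 0 h in OGA-null larvae and 30.4 to 45.8 in WT larvae, and the 7 peaks of 75 bp that met the other limits had 21.4 to 25.8 in OGA-null and 28.5 to 40.0 in WT. At 12 h the medians were 16.9 in OGA-null and 6.17 in WT for the members, and 13.6 in OGA-null and 5.49 in WT for the peaks of 75 bp. The members then ranged over 14.7 to 21.6 in OGA-null and 4.90 to 6.88 in WT. The peaks of 75 bp ranged over 11.1 to 23.7 in OGA-null and 4.35 to 8.21 in WT. Signal per base is the deposited signal of a peak divided by its width. For the gap to OGA, the member at 1003 bp (3L, 12517843 to 12517910) had 21.4 in OGA-null and 32.9 in WT larvae at 0 h, and the narrow peak just outside, at 984 bp (2R, 19930281 to 19930300), 24.5 in OGA-null and 34.8 in WT. At 12 h the member had 14.7 in OGA-null and 6.04 in WT, and the peak outside 13.2 in OGA-null and 4.47 in WT. For the gap to the next O-GlcNAc peak, the member at 9928 bp (2L, 3036776 to 3036795) had 20.4 in OGA-null and 26.5 in WT larvae, and the isolated peak at 10075 bp (3L, 3799897 to 3799965) 22.8 in OGA-null and 28.8 in WT. At 12 h the member had 16.8 in OGA-null and 4.06 in WT, and the isolated peak 11.6 in OGA-null and 4.92 in WT.

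The members fell into 266 clusters, taking as a cluster each run of O-GlcNAc peaks in which neighbours lay within 10000 bp. Most clusters were small: 122 were pairs of peaks, which held 183 members, and 56 had 5 or more peaks, which held 217 members. The clusters held 950 peaks in all, the 593 members with 153 broad peaks and 204 peaks near OGA. In 88 clusters each peak was a member (213 members), 115 clusters held a broad peak and 95 held a peak near OGA. A single member stood among peaks of other classes in 87 clusters, 100 clusters had 2 members and 45 had 3. Of the rest, 16 had 4 members, 9 had 5, 3 had 6, 4 had 7 and 2 had 8. Clusters spanned a median of 5.44 kb, the shortest 59 bp and the longest 52.7 kb.

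Within clusters the distance to the next peak covered a wide range, with many peaks closer together than a sonicated fragment is long. The gap from a member to its nearest peak was 16 to 9928 bp with a median of 1188 bp (quartiles 121 and 3320 bp). Of the 593, 175 (29.5%) had a peak under 200 bp away, 106 (17.9%) at 200 bp to under 1000 bp, 142 (23.9%) at 1000 to under 3000 bp and 170 (28.7%) at 3000 to 10000 bp. For 386 members the nearest peak was itself a member, for 124 a broad peak and for 83 a peak near OGA. Under 200 bp, the nearest peak was a member in 136 cases, a broad peak in 36 and a peak near OGA in 3. The protocol sheared chromatin to about 200 to 700 bp, so a single fragment can cover a pair of peaks under 200 bp apart and neighbours at that distance are not independent measurements.

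**Figure D1:**
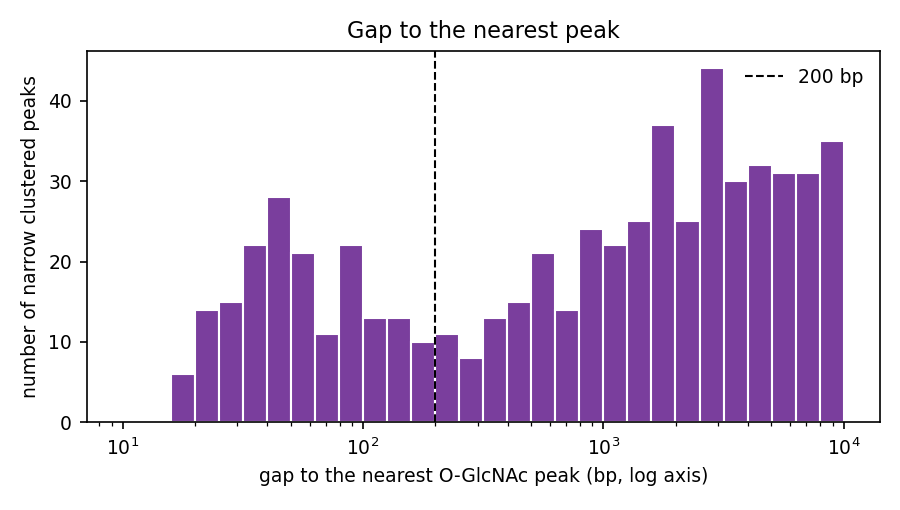
Number of the 593 members by the gap to the nearest other O-GlcNAc peak, in bp on a log axis, with a dashed line at 200 bp. The gaps run from 16 to 9928 bp, and the 175 members left of the line are separated by a dip from the larger number with wider gaps.

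The signal per base of the members was lower in OGA-null than in WT larvae at the end of feeding and higher at each later time. In OGA-null larvae the median over the 593 members was 22.3 (0 h), 21.5 (4 h), 16.4 (8 h), 13.7 (12 h), 11.0 (16 h), 6.52 (20 h), 2.66 (24 h) and 1.45 (36 h). In WT larvae it was 31.7 (0 h), 15.1 (4 h), 10.3 (8 h), 5.13 (12 h), 4.32 (16 h), 2.57 (20 h), 0.958 (24 h) and 0.171 (36 h). Relative to its own 0 h value, the median member of OGA-null larvae kept 48.9% after 16 h of chase. In WT larvae a like share, 48.0%, was reached after 4 h. At 12 h the median member kept 61.4% in OGA-null and 16.2% in WT larvae, at 24 h 11.8% in OGA-null and 3.09% in WT, and at 36 h 6.58% in OGA-null and 0.526% in WT. At 36 h, 12 of the 593 members were listed at 0 in the WT column and none in the OGA-null column. Of all 1883 peaks, 1848 had a WT value above 0 at that time. Among narrow isolated peaks 14 of 314 were listed at 0 there, among broad peaks 3 of 320 and among peaks near OGA 3 of 434. Levels compared between columns rest on the authors' scaling of the columns, which the sources used here do not describe.

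**Figure D2:**
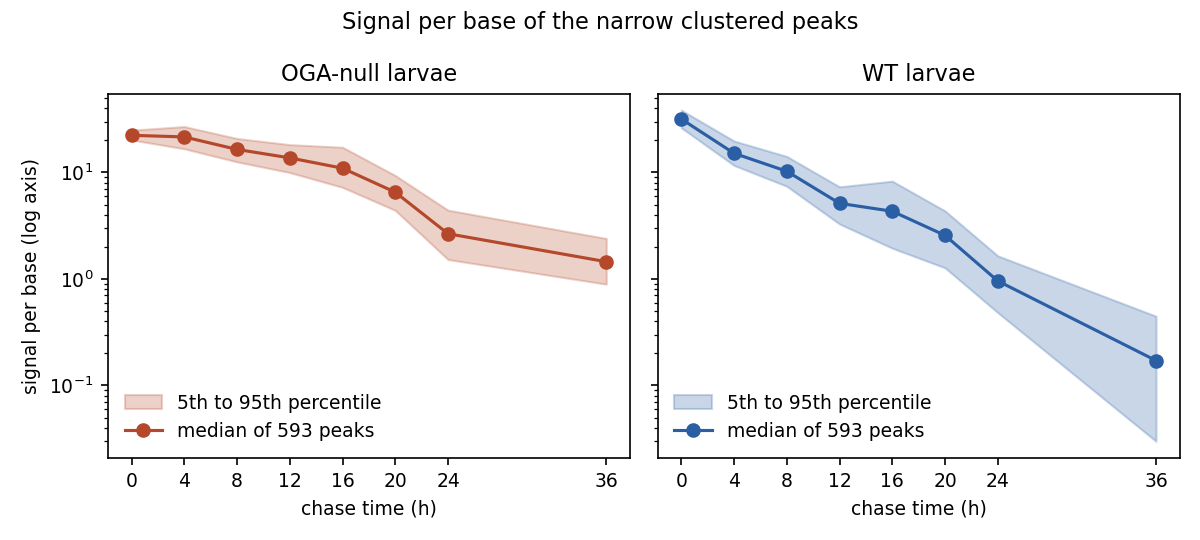
Signal per base on a log axis against chase time in hours, OGA-null larvae on the left and WT larvae on the right, with points for the median of the 593 members and a band from their 5th to their 95th percentile. The OGA-null median stayed between 22.3 and 11.0 up to 16 h, and the WT median was already 15.1 at 4 h.

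Between 0 and 4 h the signal hardly fell without OGA. In OGA-null larvae the median member kept 96.2% at 4 h, and 231 of the 593 members (39.0%) were above their own 0 h value, against 43.8% of all 1883 peaks. Members followed the rest of the list in the size of the genotype difference too. At 4 h, 13 members (2.19%) had at least 2-fold more signal in OGA-null than in WT larvae, against 1.38% of all peaks. At 8 h there were 86 (14.5%, against 11.8%), at 12 h 525 (88.5%, against 90.1%), at 16 h 454 (76.6%, against 80.1%) and at 24 h 466 (78.6%, against 80.7%). These shares lay near those of the whole list, and with 1 column per genotype and time they carry no test.

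Member by member, the direction was nearly uniform, as it was over the whole list. The OGA-null value was above the WT value for 2 members (0 h), 584 (4 h), 587 (8 h), 593 (12 h), 593 (16 h), 592 (20 h) and 591 (24 h) of the 593, and for all 581 members with a WT value above 0 at 36 h. Over all 1883 peaks it was above for 0.159% (0 h), 98.8% (4 h), 99.4% (8 h), 100% (12 h), 100% (16 h), 99.8% (20 h) and 99.4% (24 h), and at 36 h for 100% of the 1848 with a WT value above 0. The median ratio of OGA-null to WT was 0.70 (0 h), 1.39 (4 h), 1.58 (8 h), 2.63 (12 h), 2.54 (16 h), 2.54 (20 h), 2.72 (24 h) and, over those 581, 8.67 (36 h). The median log2 ratio over all 593, taken with a pseudocount of 1 on each signal (2.87 at 36 h), rose with chase time by 0.0783 ± 0.0115 per hour (SE of the line, 8 times; Pearson's r = 0.941, exact two-sided permutation p = 2.23e-04; Spearman's rho = 0.929, exact p = 0.00223). Without the 0 h and 36 h columns, the farthest from the middle of the chase, the slope was 0.0472 per hour, r was 0.849 (exact permutation p = 0.025) and rho 0.829 (exact p = 0.0583). These tests permute the times over the same peaks, so they do not speak of other peaks, and the scaling between columns enters them.

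A line was fitted through log2(signal + 1) of each member against hours. The apparent half-life is the time in which this fitted line falls by 1 log2 unit. The decline was not straight on this scale, so it is not the time at which the signal had halved. The median member kept 48.9% at 16 h in OGA-null and 48.0% at 4 h in WT larvae. The median member had 8.41 h in OGA-null larvae (6.71 to 11.2 h over members) and 5.06 h in WT larvae (3.39 to 6.67 h). All 593 declined more slowly without OGA, as did 100% of the 1883 peaks, and the ratio of the half-life in OGA-null to that in WT larvae had a median of 1.66 (1.17 to 2.80). That ratio had a median of 1.73 in narrow isolated peaks, 1.85 in broad peaks and 1.63 in peaks near OGA. The pseudocount of 1 is added to the signal of a whole peak. At low signal it by construction lengthens half-lives more in narrow than in broad peaks. Its part in the differences between classes was not tested. A line through the medians gave 8.84 ± 1.03 h in OGA-null and 5.29 ± 0.254 h in WT larvae (SE of the line, 8 times). The 90% of members between the 5th and 95th percentile lay at 7.26 to 10.0 h in OGA-null and 4.24 to 5.98 h in WT larvae. Half-lives of narrow isolated peaks had medians of 8.58 h in OGA-null and 4.89 h in WT, those of broad peaks 8.65 h in OGA-null and 4.69 h in WT, and those of peaks near OGA 8.32 h in OGA-null and 5.11 h in WT.

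One member had the most signal through nearly the whole chase. The highest at 0 h in WT larvae lay on 2L (13211944 to 13212007, 64 bp, in a cluster of 5 peaks). In OGA-null larvae its signal per base was 34.2 (0 h), 40.3 (4 h), 30.6 (8 h), 29.9 (12 h), 29.5 (16 h), 12.7 (20 h), 8.52 (24 h) and 4.38 (36 h). In WT larvae it was 55.3 (0 h), 30.0 (4 h), 23.4 (8 h), 11.0 (12 h), 18.2 (16 h), 7.88 (20 h), 3.26 (24 h) and 0.0219 (36 h). It was the highest of all members in each OGA-null column and in the WT columns from 0 to 24 h, yet its WT value at 36 h was below the 5th percentile of the members (0.0299). Its half-lives were 10.8 h in OGA-null and 3.84 h in WT larvae. The next 4 by WT 0 h signal per base were on 2R (43061 to 43134, 27.7 in OGA-null and 45.8 in WT at 0 h), 3L (3899505 to 3899530, 26.1 in OGA-null and 45.6 in WT), 3R (20102908 to 20102943, 24.4 in OGA-null and 44.0 in WT) and 2R (19865956 to 19865980, 23.6 in OGA-null and 43.0 in WT).

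The members lowest in WT larvae were not all low in OGA-null larvae. The lowest at 0 h in WT larvae lay on 3R (19990412 to 19990431, 20 bp), with 22.4 in OGA-null and 20.8 in WT larvae, and it was 1 of the 2 members with the higher value in OGA-null larvae at 0 h. By 12 h it had 8.90 in OGA-null and 3.85 in WT larvae. The next lowest were on 3L (19091679 to 19091698, 18.9 in OGA-null and 23.3 in WT at 0 h) and on 2R (14063689 to 14063721, 23.5 in OGA-null and 23.8 in WT). Over all 593, the 0 h values spanned 18.7 to 34.2 in OGA-null larvae and 20.8 to 55.3 in WT larvae.

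The members with extreme half-lives are described here by their values at 36 h. That time lies farthest from the mean of the 8 times, so it weighs most in the fitted line by which these members were picked. The longest in OGA-null larvae were 11.2 h on 2L (9705986 to 9706005), 11.1 h on 3R (773662 to 773687) and 10.9 h on 3R (1834248 to 1834267). These 3 kept 12.9%, 12.1% and 12.2% of their 0 h signal at 36 h in OGA-null larvae, above the median member's 6.58%, and 0.117%, 0.264% and 0.387% in WT larvae, below the median of 0.526%. The shortest in OGA-null larvae were 6.71 h on 3R (7645670 to 7645689), 6.73 h on 2L (4879057 to 4879081) and 6.81 h on 3R (18875950 to 18875981), with 2.77%, 3.37% and 4.14% left at 36 h. In WT larvae the longest half-lives were 6.67 h (3L, 5179969 to 5179988), 6.66 h (3L, 3383645 to 3383664) and 6.64 h (2R, 2026228 to 2026247), and all 3 peaks had 0.600 to 0.705 units per base at 36 h, above the 95th percentile of the members (0.448). The shortest in WT larvae, 3.39 h (2R, 7781632 to 7781697), 3.55 h (3R, 6230472 to 6230544) and 3.78 h (2R, 4532634 to 4532680), all belonged to peaks listed at 0 at 36 h. WT half-lives at both ends went with the 36 h column, the lowest in signal, which follows in part from the weight of that column in the fit. The longest were of peaks 20 bp wide and the shortest of peaks 66, 73 and 47 bp wide. A peak listed at 0 enters the fit as the pseudocount alone, so its half-life also depends on its width.

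Of the clusters richest in members, 2 held 8, and 4 held 7. Of the 4 with 7 members, the one with the shortest span is described, which was also the only one of them without peaks of other classes. The first, on 2R (11749220 to 11778785, 29566 bp), held 8 members with 1 broad peak and 3 peaks near OGA. Its members had a lowest, median and highest signal per base of 21.5, 22.4 and 25.7 at 0 h in OGA-null larvae and 28.1, 34.5 and 38.5 in WT larvae, and at 12 h of 10.0, 13.7 and 17.0 in OGA-null and 4.38, 5.26 and 6.97 in WT. The second, also on 2R (19838430 to 19891134, 52705 bp), was the longest of all 266 clusters and held 8 members with 8 peaks near OGA. There the 8 members had 21.1, 22.2 and 23.6 at 0 h in OGA-null larvae and 26.7, 32.2 and 43.0 in WT, and at 12 h 10.3, 13.2 and 18.6 in OGA-null and 2.93, 4.81 and 7.92 in WT. The ranges of the genotypes were apart at 0 h, with WT higher, and at 12 h, with OGA-null higher, in both clusters. They overlapped at 4, 8 and 24 h in the first and at 4, 8, 16 and 20 h in the second.

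The third, on 3R (5402550 to 5414519, 11970 bp), consisted of members alone, 7 of 7. Their lowest, median and highest signal per base at 0 h was 19.9, 22.4 and 24.0 in OGA-null larvae and 28.7, 32.0 and 34.5 in WT larvae. At 12 h it was 8.27, 13.7 and 18.0 in OGA-null and 3.75, 5.14 and 6.88 in WT, and at 24 h 1.34, 2.23 and 4.32 in OGA-null and 0.442, 0.816 and 0.949 in WT. The median member of each of the 3 clusters kept 57.4% to 60.4% at 12 h in OGA-null larvae and 15.4% to 16.8% in WT larvae, near the 61.4% in OGA-null and 16.2% in WT of all members.

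**Figure D3:**
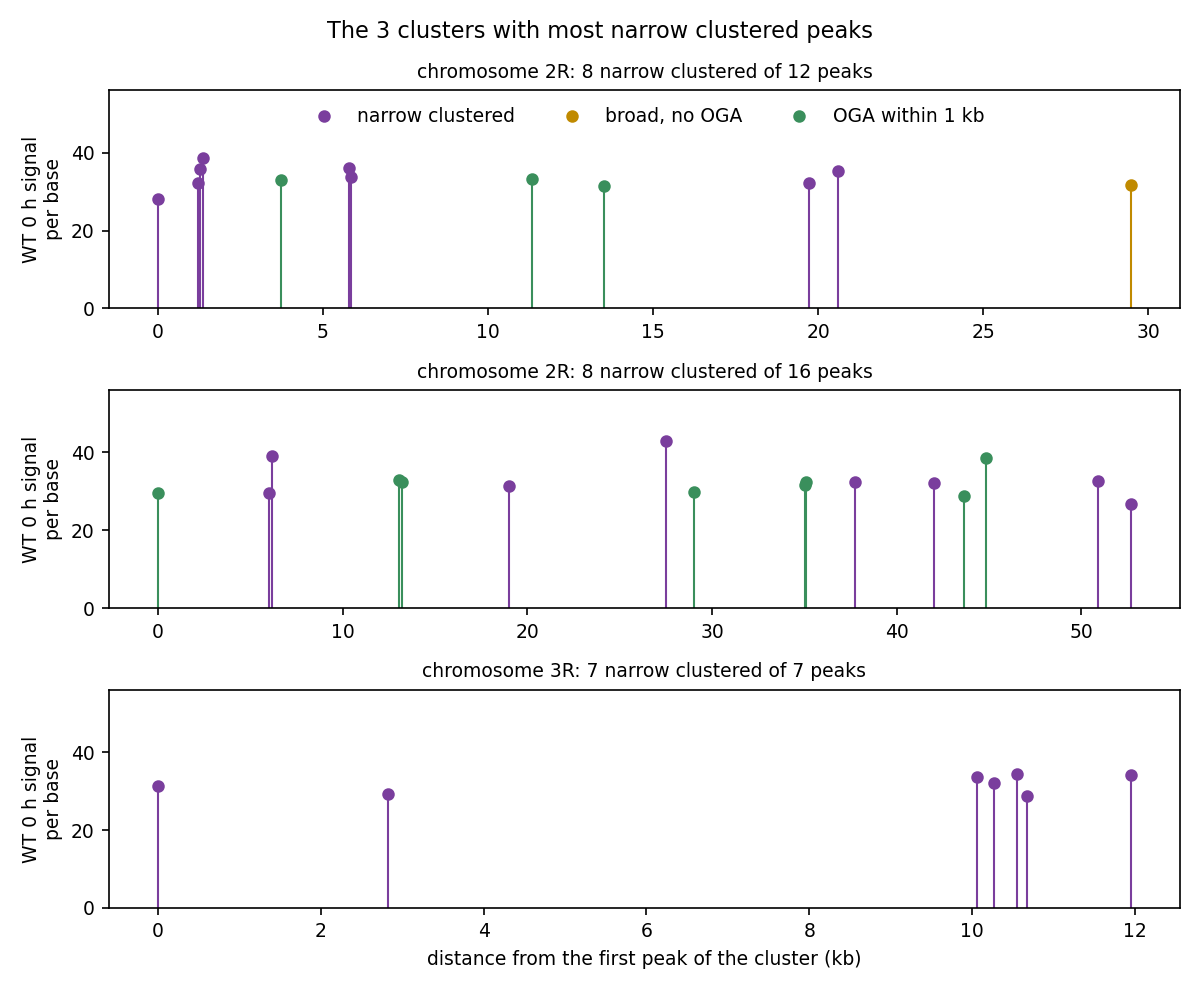
Layout of the 2 clusters with 8 members and the shortest cluster with 7, with distance from the cluster's first peak in kb on the horizontal axis, signal per base of WT larvae at 0 h on the vertical axis, and each peak drawn as a stem with a point coloured by class. The upper and middle clusters also hold peaks near OGA (3 and 8), and the lowest holds 7 members only.

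Neighbouring members were more alike in signal than members taken at large, and most clearly at gaps under 200 bp. There were 299 pairs of adjacent members, with no further member between them and a median gap of 1913 bp. The difference in log2 signal per base between adjacent members was smaller than that over all 175528 pairs of members, with a mean difference in medians of -0.0251 in OGA-null larvae (smaller at 7 of 8 times, exact sign-flip permutation over the columns, adjusted p = 0.0234) and -0.0411 in WT larvae (8 of 8 times, adjusted exact p = 0.0156). Without the members that have another peak under 200 bp away, neither passed: -0.0114 in OGA-null (adjusted exact p = 0.102) and -0.0237 in WT larvae (adjusted exact p = 0.0625). These exact tests flip the sign of whole columns and take the peaks as given, and the smallest p they can give is 0.0078.

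The split by gap was chosen after seeing the data. For the 71 pairs under 200 bp apart, the median difference was 72.1% of that over all pairs in OGA-null larvae (49.6 to 91.1% over the 8 times) and 71.1% in WT larvae (57.0 to 87.1%), smaller at 8 of 8 times in each (exact sign-flip permutation p adjusted over 10 relations = 0.0260 in both). Within these 71 pairs the log2 values per base of both peaks correlated with Pearson's r of 0.200 to 0.633 over the OGA-null columns (median 0.416) and 0.216 to 0.651 over the WT columns (median 0.365). The points of a pair share library, column and, at that distance, DNA fragments. For the 50 pairs at 200 to under 1000 bp the difference was 91.0% of that over all pairs in OGA-null (6 of 8 times, adjusted exact p = 0.0521) and 90.4% in WT larvae (6 of 8, adjusted exact p = 0.156).

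Beyond 1000 bp the likeness was small or not detectable. For the 61 pairs at 1000 to under 3000 bp the difference was 105% of that over all pairs in OGA-null (smaller at 3 of 8 times, adjusted exact p = 0.711) and 101% in WT larvae (4 of 8, adjusted exact p = 0.660). For the 117 pairs at 3000 to 10000 bp it was 100% in OGA-null (4 of 8, adjusted exact p = 0.547) and 93.8% in WT larvae, where it passed (7 of 8, adjusted exact p = 0.0391). Set directly against each other, pairs under 200 bp apart differed less than pairs at 3000 to 10000 bp, with a mean difference of -0.0755 log2 in OGA-null and -0.0716 log2 in WT larvae (8 of 8 times each, adjusted exact sign-flip p = 0.00781, the smallest this test can give). Pairs under 200 bp apart can share DNA fragments, and the ranges were chosen after seeing the data. This test therefore cannot tell likeness of nearby sites from shared fragments.

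The closest pairs show how far likeness went. On 3R, 19322764 to 19322783 and 19322800 to 19322819 lay 16 bp apart, and had 12.6 and 11.3 units per base at 12 h in OGA-null larvae and 6.07 and 5.92 in WT larvae. Their half-lives were 8.64 and 8.69 h in OGA-null and 5.65 and 4.84 h in WT. On 3L, 22391817 to 22391836 and 22391856 to 22391875 lay 19 bp apart, and had 13.0 and 6.96 at 12 h in OGA-null larvae but 4.40 and 4.50 in WT larvae. Another pair at 19 bp, on 3R (7645631 to 7645650 and 7645670 to 7645689), had 11.1 and 11.6 at 12 h in OGA-null larvae and 2.54 and 1.75 in WT larvae. The pair on 3L thus differed by more at 12 h in OGA-null larvae than either pair on 3R did. Half-lives of adjacent members under 200 bp apart differed by a median of 0.468 h in OGA-null and 0.427 h in WT larvae, against 0.759 h in OGA-null and 0.515 h in WT over all pairs of members.

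**Figure D4:**
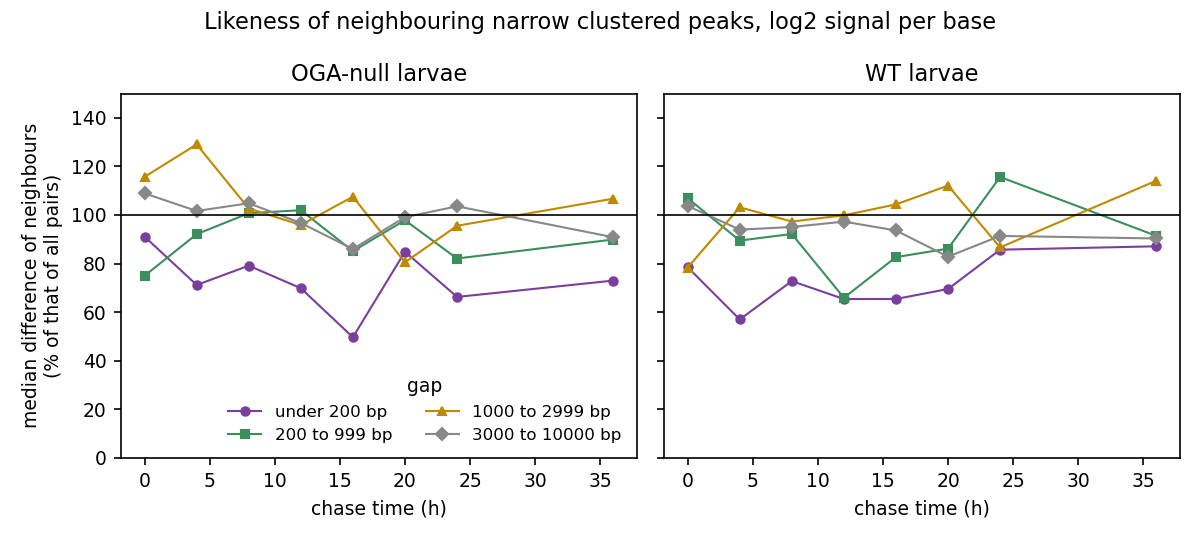
Median difference in log2 signal per base between adjacent members, as a percentage of that over all pairs of members (line at 100%), against chase time in hours, with 1 line per range of gaps, OGA-null on the left and WT on the right. All points of the 71 pairs under 200 bp apart lie below 100% (49.6 to 91.1% in OGA-null and 57.0 to 87.1% in WT), and each wider range has points on both sides.

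Set against the other autosomal peaks, the members had slightly less signal per base. They were below narrow isolated peaks at 7 of 8 times in OGA-null larvae, with a mean difference of -0.203 units per base (adjusted exact sign-flip permutation p = 0.0234; -6.40 to 0.195% by time), and at 7 of 8 times in WT larvae (mean difference -0.182, adjusted exact p = 0.0469; -2.72 to 11.5%). Against broad peaks the gap was wider: -2.18 in OGA-null larvae (lower at 8 of 8 times, -20.6 to -9.24%, adjusted exact p = 0.0234) and -1.85 in WT larvae (7 of 8 times, -25.4 to 21.4%, adjusted exact p = 0.0234). Broad peaks are set apart by width, which comes from the same experiment as the signal, so this comparison is not independent of it. Against peaks near OGA the mean difference was -0.247 in OGA-null (7 of 8 times, adjusted exact p = 0.0234) and -0.137 in WT larvae (6 of 8 times, adjusted exact p = 0.133). Peaks near OGA could have any width (20 to 557 bp, median 35 bp, against a median of 22 bp in members). This comparison therefore mixes width with the gap to OGA, and the part of each was not tested. These tests use differences in units per base, so columns with little signal, as at 36 h in WT larvae, weigh little in them. At 36 h in WT larvae the order against narrow isolated and broad peaks turned, with medians of 0.171 in members, 0.154 in narrow isolated and 0.141 in broad peaks. The difference from narrow isolated peaks did not pass in either genotype when neighbours were counted within 5000 bp (-0.0190 in OGA-null, adjusted exact p = 0.633, and -0.0594 in WT, adjusted exact p = 0.291) or when peaks of 20 bp alone were compared (-0.0660 in OGA-null, adjusted exact p = 0.281, and -0.202 in WT, adjusted exact p = 0.234).

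Within the members, wider peaks and those with a nearer next peak had more signal per base on average. These differences passed in OGA-null larvae and were of like size in WT larvae, where they did not pass. The genotypes were not tested against each other, and the size of the cluster did not pass. The splits were also chosen after seeing the data, and columns with little signal again weigh little in their tests. Widths and gaps come from the same experiment as the signal, so the splits are not independent of it. Members with a peak under 200 bp away had 0.451 more units per base than those with the nearest peak at 3000 to 10000 bp in OGA-null larvae (higher at 8 of 8 times, 0.0473 to 8.10%, exact sign-flip permutation p adjusted over 6 relations = 0.0234) and 0.400 more in WT larvae (6 of 8, adjusted exact p = 0.0703). Members of 35 to 74 bp had 0.467 more than those of 20 bp in OGA-null (8 of 8, 1.05 to 8.66%, adjusted exact p = 0.0234) and 0.504 more in WT larvae (6 of 8, adjusted exact p = 0.0703). Between clusters of 5 or more peaks and pairs of peaks the members differed by 0.0282 in OGA-null (higher at 6 of 8 times, adjusted exact p = 0.281) and -0.0613 in WT larvae (higher at 6 of 8 times although the mean was lower, adjusted exact p = 0.656).

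The share of signal left followed narrow isolated peaks closely for most of the chase. At 12 h members kept a median of 61.4% and narrow isolated peaks 61.1% in OGA-null larvae, and members 16.2% and narrow isolated peaks 16.1% in WT larvae. At 36 h members kept 6.58% and narrow isolated peaks 6.88% in OGA-null, and members 0.526% and narrow isolated peaks 0.440% in WT. In all trends of the share left, against each class, the difference at 0 h is 0 by construction. That time still enters the tests as 1 of the 8 times, and the other times all refer to it. In WT larvae the log2 share left of members rose against that of narrow isolated peaks by 0.00529 ± 0.00131 per hour (SE of the line, 8 times; r = 0.855, exact two-sided permutation p adjusted over 6 relations = 0.0110; rho = 0.810, adjusted exact p = 0.0653). In OGA-null larvae the same slope was -0.00235 ± 0.000776 per hour (r = -0.778, adjusted exact p = 0.0659; rho = -0.738, adjusted exact p = 0.0917).

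The WT trend rested on the last columns. By time, the difference in log2 share left between members and narrow isolated peaks in WT larvae was 0.015 (12 h), 0.012 (16 h), 0.005 (20 h), 0.085 (24 h) and 0.206 (36 h). Without the 36 h column the slope was 0.00243 (adjusted exact p = 0.0881), and without 0 h and 36 h r was 0.698 (exact permutation p = 0.0806). The WT 36 h column also stood apart in its signal: over the 593 members its log2 signal per base had Pearson's r of -0.145 to 0.0364 with the other 15 columns, which had 0.123 to 0.559 among themselves. The part of that column in the trend, beyond the value without it, was not tested.

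Against the other classes no trend of the share left passed after adjustment. Against broad peaks the slope was -0.00379 per hour in OGA-null larvae (r = -0.725, adjusted exact p = 0.0793) and 0.0172 in WT larvae (r = 0.724, adjusted exact p = 0.0801), where the difference was 0.729 at 36 h. Without the 0 h and 36 h columns the slope was -0.00541 in OGA-null larvae (r = -0.910, unadjusted exact permutation p = 0.0194) and 0.00300 in WT larvae (r = 0.317, unadjusted exact p = 0.556). These log2 values include the pseudocount of 1 added to the signal of a whole peak, which by construction weighs more in narrow than in broad peaks when little signal is left. Against peaks near OGA r was 0.172 in OGA-null (adjusted exact p = 0.692) and -0.450 in WT larvae (adjusted exact p = 0.317), where the slope of -0.00250 per hour turned to 0.00106 without the 0 h and 36 h columns (r = 0.207, unadjusted exact p = 0.683). At 36 h in WT larvae the median members kept 0.526%, broad peaks 0.364% and peaks near OGA 0.593% of their 0 h signal.

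**Figure D5:**
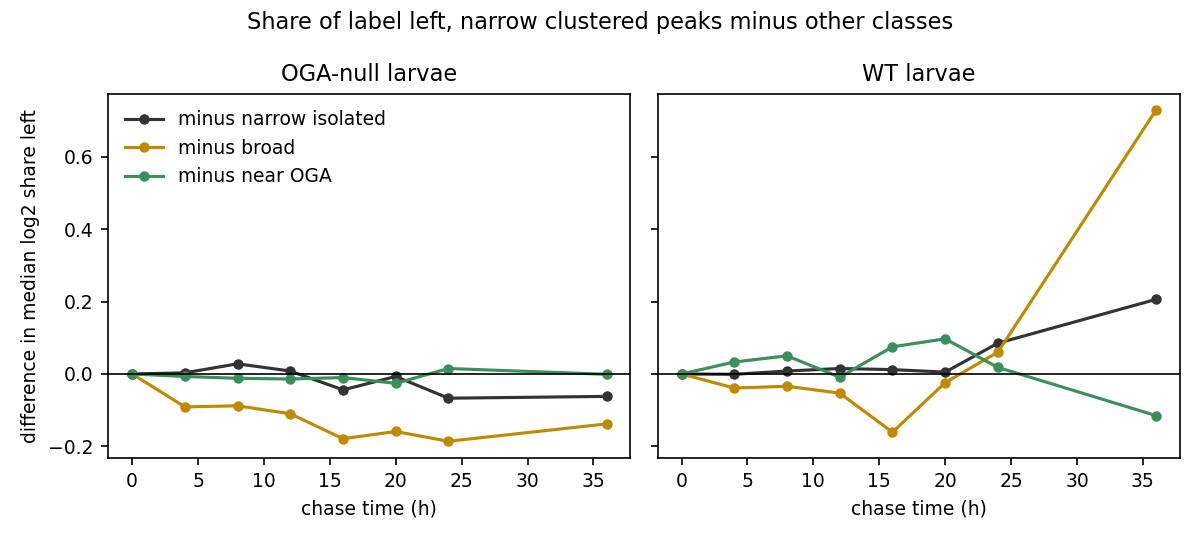
Difference in median log2 share of signal left between members and each other class of autosomal peaks, against chase time in hours, OGA-null on the left and WT on the right, with a line per class. In WT larvae the difference from narrow isolated peaks stayed between -0.001 and 0.015 up to 20 h and reached 0.206 at 36 h, where that from broad peaks was 0.729.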

How the data were processed

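Tools named in the submitters' processing notes are SAMtools and bedtools 2.17.0, and the genome builds named there are dm3 and sacCer3. The sources used here give no aligner, peak caller or scaling between columns. The deposited values are signal per peak, 1 column per genotype and chase time, and per the file headers each column combines replicates 1 and 2. In the deposited table the signal grew with the width of a peak (on log scales r = 0.990 over all peaks and 0.973 over members), as coverage summed over bases does, so signal was divided by width in bp.

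Members were found from positions and widths alone. Positions are dm3 as deposited, with 1 added to the start. Clusters join peaks within 10000 bp. Half-lives are least-squares fits of log2(signal + 1) on hours. The share left is the signal as a percentage of the same peak's 0 h signal. Trends over the 8 chase times were tested exactly over all 40320 orders, two-sided. Differences between classes and between neighbours were tested by flipping signs over the 8 columns (256 patterns, two-sided), with Benjamini-Hochberg adjustment over 6 relations for classes, 6 for splits of members, 2 for neighbours and 10 for neighbours by gap. In these tests the columns share the same peaks and their properties, and replicate error does not enter.

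The members and lists were chosen with earlier results of these data known. Tests were planned per library and replaced by tests over columns, since no column holds a single library. Peaks named are the 5 highest and 3 lowest by WT 0 h signal per base, the 3 longest and 3 shortest half-lives in each genotype, the 2 closest pairs (the second tied with a further pair, also given) and the 3 clusters richest in members (ties by the shorter span), whose members are summarised as lowest, median and highest. Alternatives moved the limits of width and gaps, the pseudocount, the low-signal filter and the times used. Line fits and exact tests were also run on simulated straight declines with independent noise in each column. The decline in these data was not straight, so that run does not show how well the fits and tests serve here. Analyses used Python 3.11.15 with numpy 2.4.6, pandas 2.3.3, scipy 1.17.1 and matplotlib 3.10.9.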

Additional observations from a re-analysis of the deposited data

Results flagged for a closer look

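The fitted drift of the members against narrow isolated peaks in the log2 share of signal left had opposite signs in the 2 genotypes, and the difference between the genotypes passed its own test. The slope in OGA-null larvae minus that in WT larvae was -0.00764 ± 0.00163 log2 per hour (SE of the line, 8 times; Pearson's r = -0.886, exact two-sided permutation p = 0.00221; Spearman's rho = -0.881, exact p = 0.00724). It was made of -0.00235 per hour in OGA-null, which did not pass by itself after adjustment, and 0.00529 per hour in WT larvae. At 0 h the difference is 0 by construction, since the share left is relative to that time. Up to 20 h it lay between -0.056 (16 h) and 0.021 (8 h), and then was -0.152 (24 h) and -0.268 (36 h). Without the 0 h and 36 h columns r was -0.785 (exact permutation p = 0.05) and rho -0.886 (exact p = 0.0333). With the times up to 16 h alone, or with 20 bp peaks alone, it did not pass, and its cause was not tested.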

How the results depend on the processing

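By Pearson's r, the rise of the OGA-null to WT ratio with chase time passed under all 14 alternatives run for it (0.0498 to 0.115 log2 per hour). It was not steady: the median log2 ratio was 1.386 (12 h), 1.333 (16 h), 1.333 (20 h) and 1.405 (24 h). Leaving out 0 h and 36 h together was not among the alternatives, and Spearman's rho then did not pass (exact permutation p = 0.0583). None of the results recomputed under the alternatives turned its direction. They covered the comparisons with narrow isolated peaks, the likeness of all neighbours, the ratio of the genotypes and the counts of members and clusters, and not the comparisons with broad peaks and peaks near OGA or the splits by gap, width and cluster size. Several small differences did not pass under other limits, and the cause was not tested. The exact p-values for share left, signal per base and likeness are adjusted as in the main tests. For signal per base against narrow isolated peaks, neighbours within 5000 bp gave -0.0190 in OGA-null (exact p = 0.633) and -0.0594 in WT larvae (0.291), widths under 50 bp -0.0993 (0.131) and -0.171 (0.227), an OGA gap over 500 bp -0.118 (0.125) and -0.147 (0.152), 20 bp peaks alone -0.0660 (0.281) and -0.202 (0.234), and leaving out the 10% of peaks lowest in WT 0 h signal per base -0.244 in WT larvae (exact p = 0.0656). For likeness of neighbours, a limit of 20000 bp gave -0.0229 in OGA-null (exact p = 0.0547), and leaving out members with a peak under 200 bp away, an alternative chosen after seeing the data, -0.0114 in OGA-null (0.102) and -0.0237 in WT larvae (0.0625). For the share left in WT larvae, a limit of 20000 bp gave 0.00746 per hour (exact p = 0.0829), an OGA gap over 5000 bp 0.00557 (0.072), 1 value per cluster 0.00379 (0.106), no 36 h column 0.00243 (0.0881), times up to 16 h 9.71e-04 (0.125) and 20 bp peaks alone 0.00328 (0.269). In OGA-null larvae it passed with an OGA gap over 500 bp (-0.00233, exact p = 0.0375) and a pseudocount of 0.1 (-0.00237, exact p = 0.0404). The difference between the genotypes was -0.00309 up to 16 h (exact p = 0.2) and -0.00438 with 20 bp peaks alone (0.125). Members numbered 314 in 170 clusters with an OGA gap over 5000 bp, and 286 with 20 bp peaks alone.

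No paired analysis was possible because each column combines both replicates. Leaving out each replicate was not run for the same reason. WT values at 36 h were the lowest and limit what late differences can show, and the depth of single libraries is unknown.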

Other observations

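The spread of signal per base among the 593 members was wider at each later time than at 0 h in both genotypes, without a steady rise. The same held in each other class of autosomal peaks. Its coefficient of variation in OGA-null larvae was 6.81% (0 h), 14.8% (4 h), 15.8% (8 h), 19.3% (12 h), 27.1% (16 h), 22.7% (20 h), 32.7% (24 h) and 29.4% (36 h). In WT larvae it was 12.1% (0 h), 16.5% (4 h), 20.4% (8 h), 23.8% (12 h), 43.6% (16 h), 35.9% (20 h), 36.2% (24 h) and 67.5% (36 h). Narrow isolated peaks went from 7.04% (0 h) to 28.1% (36 h) in OGA-null and from 13.1% to 72.4% in WT larvae. The peak list comes from the same experiment, so the spread is not independent of it, and its part was not tested. Signal was lowest at 36 h in WT larvae, where 12 of the 593 members and 14 of the 314 narrow isolated peaks were listed at 0.

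The WT decline was not steady at each member. In WT larvae 203 of the 593 members (34.2%) had more signal at 16 h than at 12 h, against 32.4% of all 1883 peaks, and the highest member on 2L was among them, with 18.2 units per base at 16 h and 11.0 at 12 h.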
